A study of Mus musculus with 12 samples.

Results

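The 51 genes described here encode enzymes that break down amino acids in the liver. They were taken as a fixed list of symbols, chosen with earlier results of these data known. The list covers tyrosine (4 genes), tryptophan (6), serine and glycine (10), proline (2), histidine (4), the branched-chain amino acids leucine, isoleucine and valine (13), lysine (1), methionine and cysteine (8) and the cytosolic and mitochondrial transaminases (3). All 51 were present among the 15910 genes of the deposited table and all 51 passed the filter on low values. The samples were hepatocytes, the main metabolic cells of the liver, dissociated after perfusion of livers from female Balb/c mice injected orthotopically at 8 weeks of age. The tumour groups received 4T1 cells, a single breast cancer line of Balb/c origin, and the control groups received PBS. Below, tumour livers and PBS livers stand for the hepatocyte preparations from mice of these groups, not for liver tissue that holds a tumour. Mice were killed at day 21 or day 4, giving 4 groups (tumour day 21, PBS day 21, tumour day 4 and PBS day 4) of 3 libraries each from polyA RNA. The labels do not give the meaning of the letters in the day 21 replicate names 8b, 9a, 10a, 11a and 12b, and each library was treated as a separate mouse.

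The liver is the main site at which most amino acids are broken down. Amino groups are moved by transaminases or released as ammonia for the urea cycle, and the carbon skeletons enter gluconeogenesis, ketone body formation or the citric acid cycle. Branched-chain amino acids are an exception, because their first transamination occurs largely outside the liver, while the liver is rich in the dehydrogenase complex that acts on the resulting keto acids. Several of the genes (Tat, Tdo2 and Sds among them) are textbook targets of glucocorticoids and glucagon, and hepatocyte-enriched transcription factors such as HNF4A and the C/EBP family are known to drive many of the others.

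Libraries held 9375095 to 21809166 reads assigned to genes. The hepatocyte label was checked against 10 defining genes (Alb, Ttr, Apoa1 and others): none was at 0 in any library, and their summed normalized counts ran from 1578192 to 2056237 in tumour day 21 libraries, 1989509 to 2441674 in PBS day 21 libraries, 2310634 to 2879978 in tumour day 4 libraries and 2250634 to 3294402 in PBS day 4 libraries. Alb made up most of each sum, from 1065047 in tumour day 21 replicate 7 to 2637617 in PBS day 4 replicate 4, so the sums mainly follow Alb. Tumour day 21 replicate 7 stood apart. It was the lowest of the 3 tumour day 21 libraries for 51 of the 51 enzymes, had the lowest hepatocyte sum of all 12 libraries, and had the highest sum over 16 neutrophil genes (S100a8, Ngp, Ltf and others). The neutrophil sums were 114271, 45693 and 25886 in tumour day 21 replicates 7, 8b and 9a, against 431, 104 and 402 in the PBS day 21 libraries, 2113, 4122 and 999 in the tumour day 4 libraries and 429, 357 and 460 in the PBS day 4 libraries. Of these sums Lcn2 alone gave 12692, 25195 and 8611 at tumour day 21 and 402, 69.4 and 370 at PBS day 21. At day 4 it gave 2000, 3585 and 968 in tumour libraries and 318, 295 and 401 in PBS libraries. The sums of replicate 8b and of every library outside tumour day 21 were thus mostly Lcn2. Which cells the Lcn2 transcripts came from was not tested. In bulk RNA, fewer hepatocytes in a preparation and less of a transcript per hepatocyte cannot be told apart.

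The promoters of the 4 enzymes with the smallest day 21 p-values are shown first, since they include calls in both directions. Agxt, Hibadh and Ivd were called lower and Csad higher. RefSeq promoter windows (GRCm38.p6, 250 bases before to 50 bases after the annotated start) were matched by symbol for 42 of the 51 genes; the others are Kynu, Sds, Sdsl, Dbt, Mut, Mat1a, Cth, Cdo1 and Gpt. Capitals mark matches to the motifs described in the next paragraph, and the remaining bases are in lower case.
Agxt, chr1:93134990-93135289, plus strand: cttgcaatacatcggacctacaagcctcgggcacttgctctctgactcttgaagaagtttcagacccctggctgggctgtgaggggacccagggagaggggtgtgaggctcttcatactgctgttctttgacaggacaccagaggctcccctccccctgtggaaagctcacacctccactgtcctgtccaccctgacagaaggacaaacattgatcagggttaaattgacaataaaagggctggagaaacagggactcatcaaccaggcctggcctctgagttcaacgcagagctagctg
Csad, chr15:102205003-102205302, minus strand: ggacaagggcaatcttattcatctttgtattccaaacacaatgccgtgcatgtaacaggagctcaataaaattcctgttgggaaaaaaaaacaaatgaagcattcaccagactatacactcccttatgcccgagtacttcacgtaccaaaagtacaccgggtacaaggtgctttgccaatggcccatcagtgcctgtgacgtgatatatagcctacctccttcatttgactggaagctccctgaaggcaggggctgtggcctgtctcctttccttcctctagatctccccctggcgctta
Csad, second annotated start, chr15:102188994-102189293, minus strand: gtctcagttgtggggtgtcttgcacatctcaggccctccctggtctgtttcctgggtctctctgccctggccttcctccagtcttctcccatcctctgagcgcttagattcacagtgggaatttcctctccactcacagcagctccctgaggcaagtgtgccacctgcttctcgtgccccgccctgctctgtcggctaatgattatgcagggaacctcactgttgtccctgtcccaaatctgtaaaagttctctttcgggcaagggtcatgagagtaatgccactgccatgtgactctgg
Hibadh, chr6:52640251-52640550, minus strand: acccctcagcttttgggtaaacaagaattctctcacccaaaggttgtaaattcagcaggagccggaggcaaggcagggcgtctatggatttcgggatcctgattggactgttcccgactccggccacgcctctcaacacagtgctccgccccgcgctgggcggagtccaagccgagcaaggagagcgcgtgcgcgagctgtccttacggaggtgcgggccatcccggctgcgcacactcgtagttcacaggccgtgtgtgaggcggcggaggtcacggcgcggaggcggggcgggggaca
Ivd, chr2:118861744-118862043, plus strand: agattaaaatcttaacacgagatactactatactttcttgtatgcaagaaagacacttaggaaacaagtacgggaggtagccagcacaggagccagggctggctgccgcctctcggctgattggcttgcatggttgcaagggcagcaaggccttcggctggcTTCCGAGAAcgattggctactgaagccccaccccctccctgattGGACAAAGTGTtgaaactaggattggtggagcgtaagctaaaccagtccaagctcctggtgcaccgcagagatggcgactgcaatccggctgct

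The 42 matched enzymes have 47 windows, and both strands of every window were searched for 4 sets of letters. The letters of HNF4A (CAAAGT) were held by 9 of the 47 (19.1%, from Agxt2, Amt, Bckdhb, Ftcd, Gldc, Gnmt, Ivd and Kmo), against 14.4% of all 32851 windows. Those of C/EBP (TTGCNNAA) were held by 5 (10.6%, from Aass, Acadsb, Agxt2, Hal and Hgd), against 10.8% of all windows. Those of STAT factors (TTCNNNGAA) were held by 3 (6.38%, from Ivd, Pccb and Prodh), against 8.3% of all windows. Those of the glucocorticoid receptor (ACA and TGTNC parted by NNN) were held by 5 (10.6%, from Bhmt, Gnmt, Hal, Ivd and Tdo2), against 3.11% of all windows. Of the 5 printed windows only that of Ivd held a match. There the STAT letters began 88 bases before the start, and the HNF4A letters, which began 41 bases before it, lay inside the glucocorticoid receptor match that began 44 bases before it on the opposite strand.

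At day 21 most of the enzymes had lower mean levels in tumour mice, 8 of them past the test, and Csad was higher. Normalized counts, that is reads per gene after the authors' scaling of each library, were compared as log2(value + 1), and a gene was called at a Benjamini-Hochberg adjusted p under 0.05 over all 12631 genes tested with limma. In tumour against PBS livers at day 21, 8 of the 51 enzymes (15.7%) were called lower, where 2.44% of all tested genes were, and 1 enzyme (1.96%) was called higher, where 5.42% of all tested genes were. The log2 fold change was negative for 43 of the 51, where 48.1% of all tested genes were negative. All 3 tumour livers were below all 3 PBS livers for 30 enzymes (58.8%), where 15.4% of all tested genes were, and above them for 1, where 17.2% were. The median log2 fold change of the 51 enzymes was -0.55, beside 0.02 over all tested genes. At an unadjusted p under 0.05, 32 enzymes were lower and 1 was higher, so 33 of 51 passed, where 23% of all tested genes did. Because the list was chosen with earlier results of these data known, these shares describe it and do not test it.

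The summed enzymes made up 1.63%, 2.13% and 2.32% of all normalized counts in tumour day 21 replicates 7, 8b and 9a, against 2.45%, 2.62% and 2.39% in PBS day 21 replicates 10a, 11a and 12b. They made up 2.63%, 2.93% and 3.15% in the tumour day 4 libraries, against 3.02%, 2.37% and 2.73% in the PBS day 4 libraries. The tumour day 21 libraries thus had the 3 lowest shares of the 12. The median enzyme differed from the PBS day 21 mean by -0.88 in replicate 7, -0.43 in replicate 8b and -0.28 in replicate 9a on the log2 scale. The library with the highest neutrophil sum thus had the lowest median, and the one with the lowest neutrophil sum of these 3 had the highest. Replicate 7 also had the highest sums of the 6 day 21 libraries over 10 sinusoidal endothelial genes (12231, 3232 and 5680 in tumour replicates 7, 8b and 9a, against 4099 to 5795 in PBS libraries) and 10 stellate cell genes (8942, 2587 and 4365, against 2489 to 3970), and there replicate 8b, not 9a, was the lowest of the tumour libraries. Its erythroid, B cell and T and NK cell sums (989, 502 and 447) were likewise the highest of the 6, while its cholangiocyte sum was not. At day 21, 1 of 10 stellate, 1 of 2 tested cholangiocyte and the 1 tested T and NK cell gene were called higher, and no endothelial, erythroid or B cell gene was. All 16 neutrophil genes were called higher at day 21 (median log2 fold change 8.33). Of these genes 0, 1 and 1 were at 0 in the tumour day 21 libraries, against 9, 3 and 8 in the PBS day 21 libraries. Their share of all normalized counts, Lcn2 included, was 0.839%, 0.293% and 0.17% in tumour day 21 replicates 7, 8b and 9a. Of the 12 Kupffer cell genes 2 were called higher (median 1.24), with summed counts of 29468, 6320 and 13669 in tumour day 21 libraries and 4649 to 6644 in PBS day 21 libraries. Of the 10 hepatocyte-defining genes none was called lower and 1 was called higher, and their median log2 fold change was -0.21, or -0.02 without replicate 7. That median covers genes that went both ways, from -0.72 to 1.16. For 4 of the 10 all tumour livers were below all PBS livers, where 15.4% of all tested genes were. For 2 they were all above, where 17.2% were. The part of other cells in the enzyme values was not tested.

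**Figure D1:**
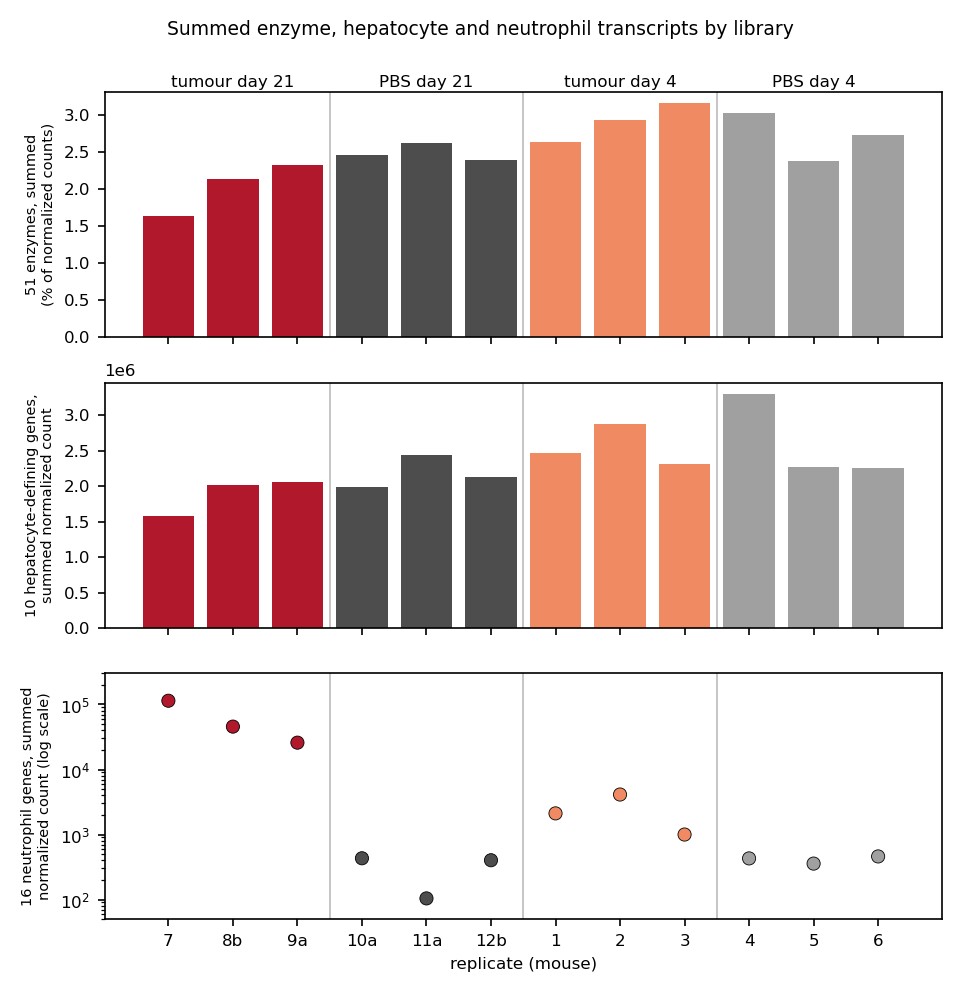
Summed transcripts in each of the 12 libraries, by group: the 51 enzymes as a percentage of all normalized counts (top, bars), the 10 hepatocyte-defining genes as a summed normalized count (middle, bars) and the 16 neutrophil genes as a summed normalized count on a log scale (bottom, points). The enzyme share is 1.63% to 2.32% in tumour day 21 libraries and 2.39% to 2.62% in PBS day 21 libraries, and the neutrophil sum is highest in tumour day 21 replicate 7.

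How firmly the count of 8 stands depends on single mice and on the scaling. Without tumour day 21 replicate 7, 1 enzyme was called lower (Agxt, where 0.649% of all tested genes were), 2 were called higher (Csad and Sdsl, where 2.86% were), and the median was -0.38 beside 0.01 over all genes. Since replicate 7 was the lowest tumour day 21 library for every one of the 51 enzymes, leaving it out could not change the 30 enzymes whose tumour livers were all below the PBS livers, so that count says nothing on stability. The count of enzymes with all tumour livers above all PBS livers could change, and it went from 1 to 7, where 21% of all tested genes were. These were Tat, Acmsd, Sds, Sdsl, Mat1a, Csad and Got1, and apart from Csad their groups overlapped only through replicate 7. Only Agxt was also called lower without PBS day 21 replicate 11a or 12b, and 4 enzymes were without replicate 10a. When libraries were centred on 20 hepatocyte transcription factors, which moved the median of all tested genes by 0.16, Agxt was again the only enzyme called lower (0.887% of all tested genes) and Csad the only one called higher (5.46%), the median of the enzymes was -0.39 and 41 were negative. DESeq2 on recovered reads called 15 enzymes lower, where it called 4.62% of all tested genes lower, and Csad higher, where it called 9.46% higher. Agxt and Csad were called in each of the 19 alternatives tried.

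**Figure D2:**
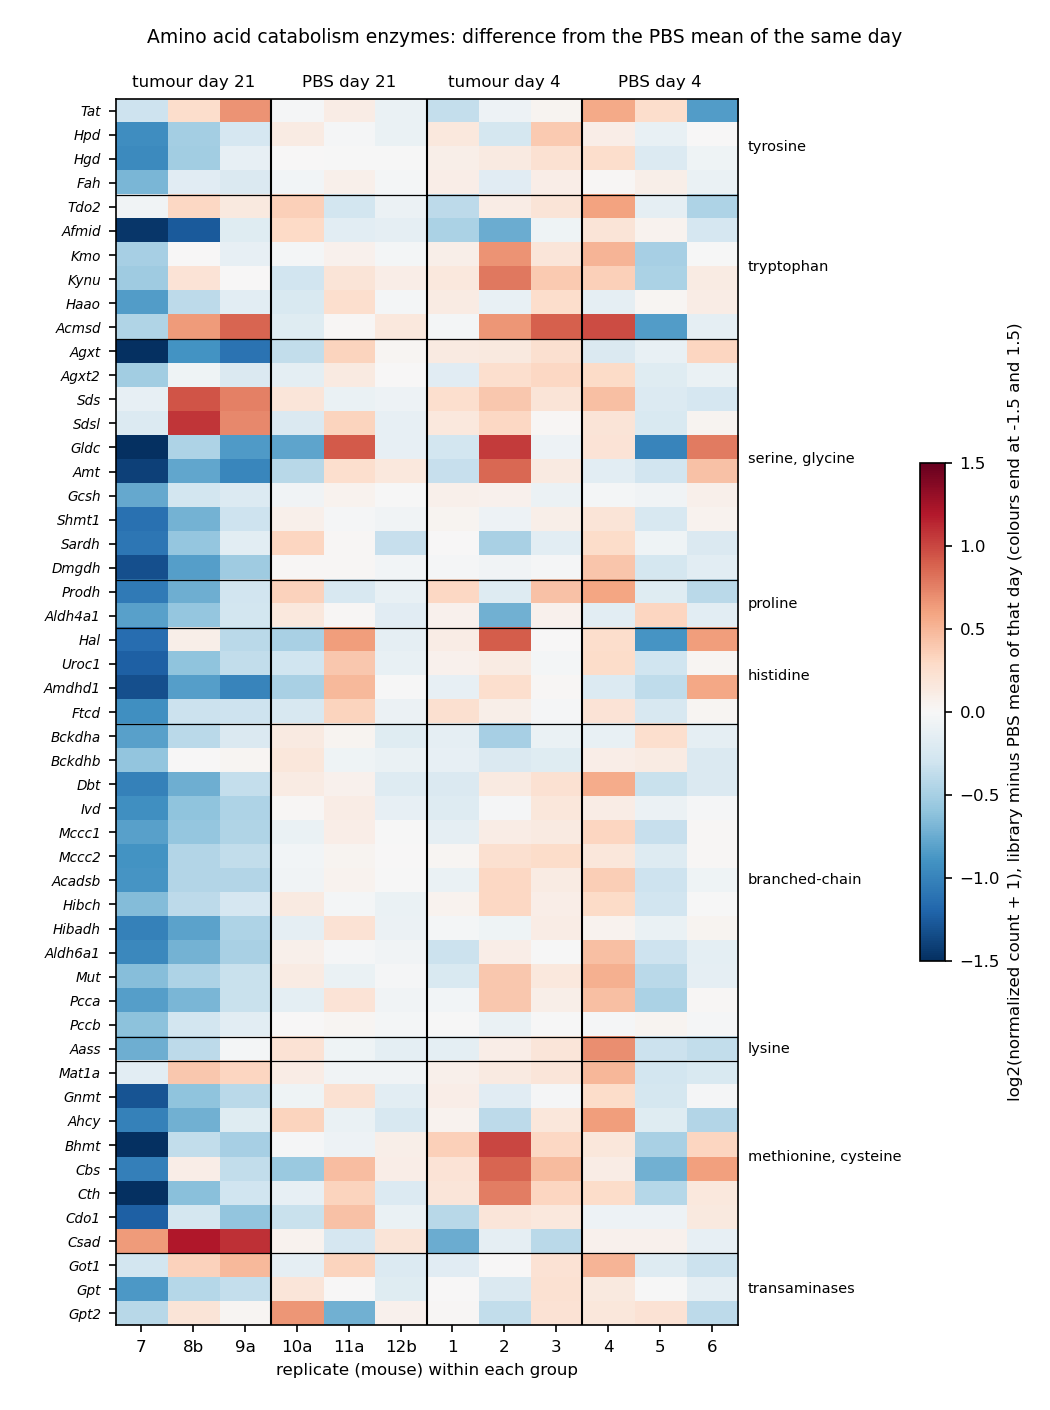
Difference of each library from the PBS mean of the same day, in log2(normalized count + 1), for the 51 enzymes (rows, ordered by pathway) and the 12 libraries (columns, by group and mouse); blue is lower and red is higher. The tumour day 21 columns are mostly blue and darkest in replicate 7, where 50 of the 51 enzymes were below the PBS mean, all but Csad. The log2 fold changes at day 21 were positive for Tat, Tdo2, Acmsd, Sds, Sdsl, Mat1a, Csad and Got1. Of these, all but Csad were above the PBS mean only in replicates 8b and 9a.

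In the tyrosine pathway none of the 4 enzymes passed the adjusted test at day 21, and 3 had all tumour livers below all PBS livers (median log2 fold change -0.44). Hgd, homogentisate dioxygenase, which opens the aromatic ring, had the smallest p of the group. Its normalized counts were 5269, 7122 and 9333 in tumour mice at day 21, against 10216, 10189 and 10179 in PBS mice at day 21. The groups did not overlap, but the tumour livers spread 1.77-fold from lowest to highest, and the log2 fold change was -0.53 (SE 0.20, adjusted p = 0.136). Hpd, the dioxygenase that forms homogentisate, had a log2 fold change of -0.56, and Fah, the last enzyme of the pathway, one of -0.35. Tat, the tyrosine aminotransferase that starts the pathway, had one of 0.21 and its groups overlapped.

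For tryptophan breakdown through kynurenine the median was -0.16 over 6 enzymes, and none was called. Afmid, kynurenine formamidase, had 267, 306 and 648 normalized counts in tumour mice at day 21, against 904, 657 and 669 in PBS mice at day 21. The groups were separate by a small margin, with tumour replicate 9a just under the lowest PBS mouse, and the log2 fold change was -0.97 (SE 0.30, adjusted p = 0.0676). Tdo2, the dioxygenase that commits tryptophan to this route, had a log2 fold change of 0.13. Kmo, Kynu and Haao, which carry kynurenine on toward NAD precursors, had log2 fold changes of -0.20, -0.11 and -0.46. Acmsd, which diverts the route away from NAD, had one of 0.35 and the groups overlapped for each of these 5 enzymes.

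Serine, glycine and one-carbon donors gave 3 of the 8 lower calls. Agxt, the aminotransferase that turns glyoxylate into glycine (ENSMUSG00000026272, GRCm38 chr1:93135240-93145421), had 2089, 3387 and 2925 normalized counts in tumour mice at day 21, against 4884, 7978 and 6470 in PBS mice at day 21. Every tumour day 21 liver was below every PBS liver of either day, and the means were 2800 ± 658 in tumour mice and 6444 ± 1547 in PBS mice (SD, n = 3 each). Its log2 fold change of -1.20 (SE 0.22, 0.435-fold, adjusted p = 0.00751) was called in each of the alternatives.

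Dmgdh, the mitochondrial dehydrogenase that takes a methyl group from dimethylglycine, had 3665, 5156 and 6297 normalized counts in tumour mice at day 21, against 9217, 9282 and 8916 in PBS mice at day 21. The PBS livers were close together and all above the tumour livers, with a log2 fold change of -0.89 (SE 0.22, adjusted p = 0.0255). Shmt1, the cytosolic enzyme that interconverts serine and glycine, had 2098, 2795 and 3671 normalized counts in tumour mice at day 21, against 4792, 4504 and 4385 in PBS mice at day 21. Here too the groups did not overlap, and the log2 fold change was -0.71 (SE 0.19, adjusted p = 0.0425).

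The subunits of the glycine cleavage system, which splits glycine into carbon dioxide, ammonia and a one-carbon unit, did not pass. Amt, its aminomethyltransferase, had a log2 fold change of -1.05 with separate groups (adjusted p = 0.0553), and Gcsh, its lipoyl carrier protein, had one of -0.42 with separate groups (adjusted p = 0.117). Gldc, its decarboxylase, was the most variable enzyme, with 643, 1766 and 1350 normalized counts in tumour mice at day 21, against 1404, 4583 and 2226 in PBS mice at day 21. Its groups overlapped, the PBS mice alone spread 3.26-fold, and the interval of its log2 fold change ran from -2.34 to 0.20. Sardh, the sarcosine dehydrogenase that follows Dmgdh, had a log2 fold change of -0.61, and Agxt2, a mitochondrial aminotransferase, one of -0.26, both with overlapping groups.

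Sds, which deaminates serine and threonine, and its close relative Sdsl had positive values. Sdsl, described after its values were seen because it was called higher without replicate 7, had 96.9, 238 and 185 normalized counts in tumour mice at day 21, against 96.8, 142 and 103 in PBS mice at day 21. Only tumour replicate 7 lay within the PBS range. Sds had 2240, 4692 and 4133 normalized counts in tumour mice at day 21, against 2770, 2283 and 2313 in PBS mice at day 21, with replicate 7 just below the PBS range and the other tumour mice above it. The log2 fold change was 0.53 for Sdsl (adjusted p = 0.284) and 0.52 for Sds (adjusted p = 0.256). Without replicate 7 they were 0.90 for Sdsl (adjusted p = 0.0412) and 0.85 for Sds (adjusted p = 0.0518). The Sds transcript shares a stretch of 365 bases at 99.7% identity with one of Plbd2, so reads could be split between these genes and the Sds values are uncertain.

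Proline breakdown is carried out in mitochondria by Prodh and Aldh4a1 in sequence. Prodh, proline dehydrogenase, had 1279, 1616 and 2198 normalized counts in tumour mice at day 21, against 3414, 2273 and 2475 in PBS mice at day 21. The groups were separate, with the highest tumour mouse close to the lowest PBS mouse, and the log2 fold change was -0.69 (SE 0.28, adjusted p = 0.161). Aldh4a1, which oxidizes the product to glutamate, also had separate groups and a log2 fold change of -0.56 (adjusted p = 0.169).

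The 4 histidine enzymes, listed in the order in which they act (Hal, Uroc1, Amdhd1 and Ftcd), had log2 fold changes of -0.48, -0.73, -1.04 and -0.52. Amdhd1, the amidohydrolase of the third step, was called lower. It had 1619, 2276 and 2026 normalized counts in tumour mice at day 21, against 2884, 5653 and 4007 in PBS mice at day 21. The tumour mice were close together and below PBS mice that spread widely, and the log2 fold change was -1.04 (SE 0.28, adjusted p = 0.038). Uroc1, urocanate hydratase, and Ftcd, which passes the formimino group to folate, had separate groups without passing, and Hal, histidine ammonia-lyase, had overlapping groups.

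The enzymes of branched-chain amino acid breakdown had the same sign throughout. All 13 had negative log2 fold changes (median -0.59, from -0.76 to -0.19), where 48.1% of all tested genes were negative. For 12 of them all tumour livers were below all PBS livers, where 15.4% of all tested genes were, and 4 (30.8%) were called lower, where 2.44% of all tested genes were. Without tumour day 21 replicate 7 the median was -0.44 and none was called.

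Ivd, isovaleryl-CoA dehydrogenase, and Mccc1 and Mccc2, the 2 subunits of methylcrotonyl-CoA carboxylase, act one after the other on the leucine skeleton. Ivd (ENSMUSG00000027332, chr2:118861954-118882909) had 1342, 1671 and 1846 normalized counts in tumour mice at day 21, against 2570, 2740 and 2323 in PBS mice at day 21. Mccc1 had 600, 710 and 771 in tumour mice at day 21, against 992, 1136 and 1053 in PBS mice at day 21. Mccc2 had 676, 926 and 969 in tumour mice at day 21, against 1219, 1286 and 1260 in PBS mice at day 21. For each of these 3 genes the highest tumour mouse was below the lowest PBS mouse of either day. The log2 fold changes were -0.66 for Ivd (SE 0.16, adjusted p = 0.0223), -0.62 for Mccc1 (SE 0.17, adjusted p = 0.043) and -0.57 for Mccc2 (SE 0.16, adjusted p = 0.0448).

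Hibadh, which oxidizes 3-hydroxyisobutyrate in valine breakdown (ENSMUSG00000029776, chr6:52546228-52640389), had 2792, 3224 and 4090 normalized counts in tumour mice at day 21, against 5144, 6581 and 5299 in PBS mice at day 21. The means were 3368 ± 661 in tumour mice and 5675 ± 789 in PBS mice (SD, n = 3 each), and no tumour mouse reached a PBS mouse. Its log2 fold change was -0.76 (SE 0.17, 0.59-fold, adjusted p = 0.0168). The valine enzymes on either side, Hibch before it and Aldh6a1 after it, had separate groups with log2 fold changes of -0.43 and -0.72 and did not pass (adjusted p = 0.13 for Hibch and 0.056 for Aldh6a1).

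Of the subunits of the keto acid dehydrogenase that all 3 branched-chain amino acids share, Bckdha had a log2 fold change of -0.48, Bckdhb one of -0.19 and Dbt one of -0.70. Bckdhb was the 1 branched-chain enzyme whose groups overlapped. Acadsb, which acts on the isoleucine skeleton, had a log2 fold change of -0.59 (adjusted p = 0.0822). Pcca and Pccb, the propionyl-CoA carboxylase subunits, and Mut, methylmalonyl-CoA mutase, which together pass propionyl-CoA to the citric acid cycle, had log2 fold changes of -0.61, -0.35 and -0.48.

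For lysine the list held Aass, which carries out the first 2 steps. Aass had 2863, 3643 and 4653 normalized counts in tumour mice at day 21, against 5529, 4554 and 4303 in PBS mice at day 21. Tumour replicate 9a lay within the PBS range, and the log2 fold change was -0.39 (SE 0.27, adjusted p = 0.435).

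Among the 8 methionine and cysteine enzymes Csad rose, while 6 had negative log2 fold changes (median -0.73 over these 6, -0.66 over all 8) that did not pass. Csad, cysteine sulfinate decarboxylase, which makes the precursor of taurine (ENSMUSG00000023044, chr15:102176999-102204724), had 901, 1329 and 1233 normalized counts in tumour mice at day 21, against 602, 486 and 660 in PBS mice at day 21. All tumour mice were above all PBS mice, including replicate 7, and the means were 1154 ± 225 in tumour mice and 583 ± 88.6 in PBS mice (SD, n = 3 each). Its log2 fold change of 0.98 (SE 0.19, 1.97-fold, adjusted p = 0.00896) ranged from 0.85 to 1.14 over the alternatives.

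Cdo1, cysteine dioxygenase, which makes the substrate of Csad, had 11189, 21801 and 17291 normalized counts in tumour mice at day 21, against 20669, 35501 and 24287 in PBS mice at day 21. Its groups overlapped through tumour replicate 8b, and its log2 fold change was -0.69 (SE 0.27, adjusted p = 0.147). Mat1a, the liver methionine adenosyltransferase, had a log2 fold change of 0.19 with overlapping groups. Gnmt, which uses up methyl groups, Bhmt, which remethylates homocysteine with betaine, and Cth, which releases cysteine, had separate groups with log2 fold changes of -0.77, -0.79 and -0.81 and did not pass (lowest adjusted p = 0.0691, for Gnmt). Cbs, which condenses homocysteine with serine, had one of -0.43 with overlapping groups. Ahcy, adenosylhomocysteine hydrolase, had one of -0.63, and its value is uncertain, because the gene Gm4737 shares 99.712% of 2083 bases with it and was counted separately at a mean of 3313.

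The 3 transaminases did not pass. Gpt, the cytosolic alanine aminotransferase, had 3098, 4169 and 4385 normalized counts in tumour mice at day 21, against 6354, 5617 and 4950 in PBS mice at day 21. Its groups were separate and its log2 fold change was -0.55 (SE 0.18, adjusted p = 0.0904). Its mitochondrial counterpart Gpt2 had a log2 fold change of -0.06 and the cytosolic aspartate aminotransferase Got1 one of 0.19, both with overlapping groups.

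**Figure D3:**
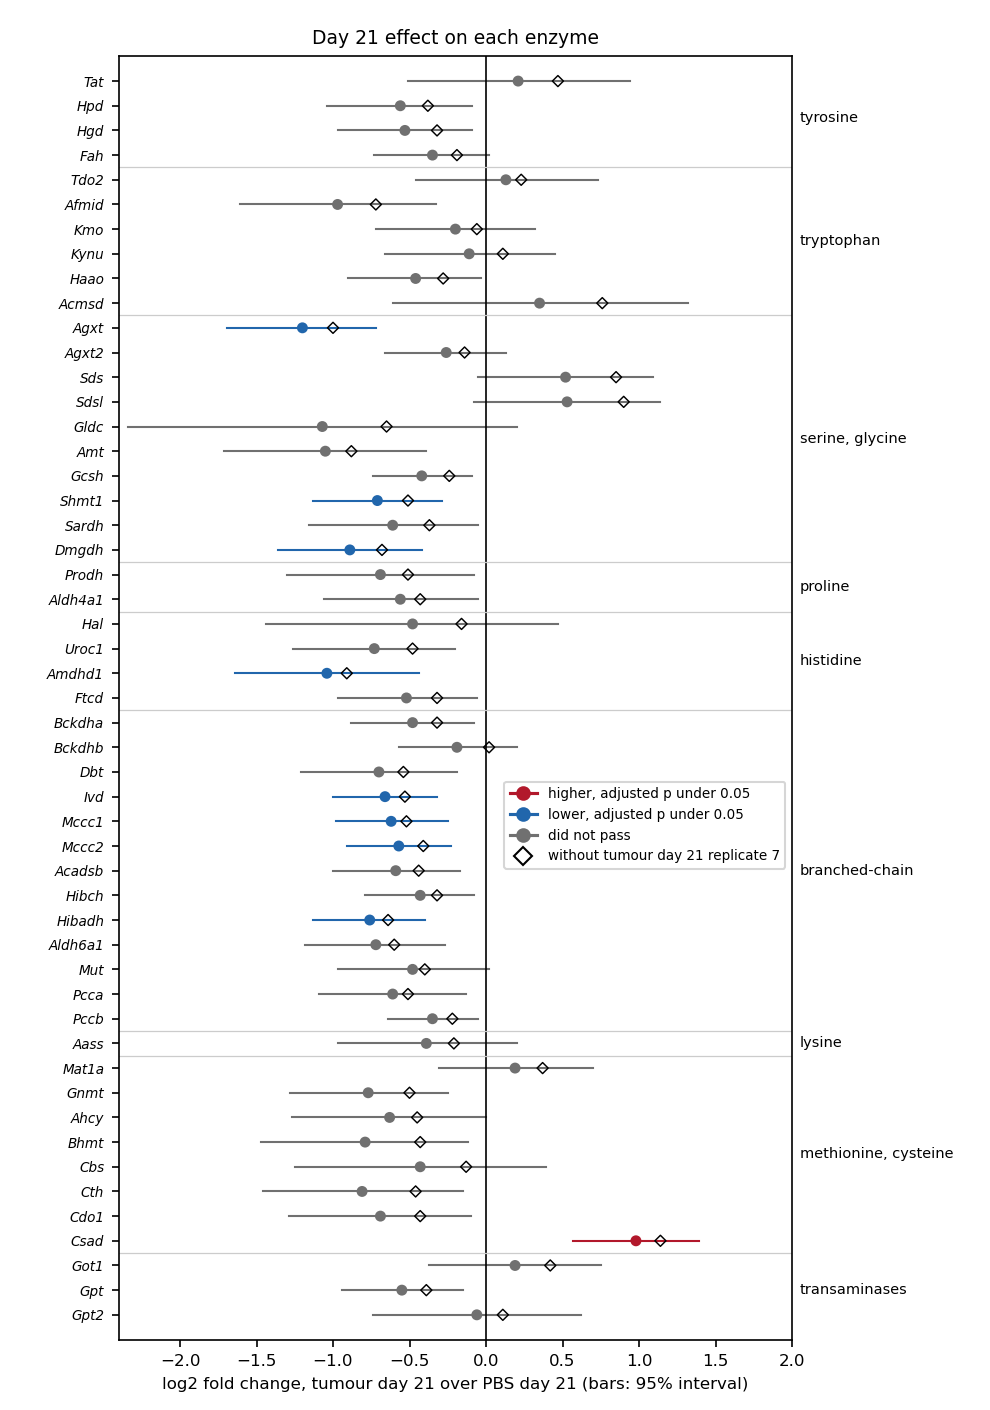
Log2 fold change of tumour day 21 over PBS day 21 for the 51 enzymes by pathway, with 95% intervals from limma; filled circles use all mice and open diamonds leave out tumour day 21 replicate 7. Blue marks the 8 enzymes called lower and red marks Csad, called higher; every diamond lies to the right of its circle, since replicate 7 was the lowest of the tumour day 21 libraries for each enzyme.

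**Figure D4:**
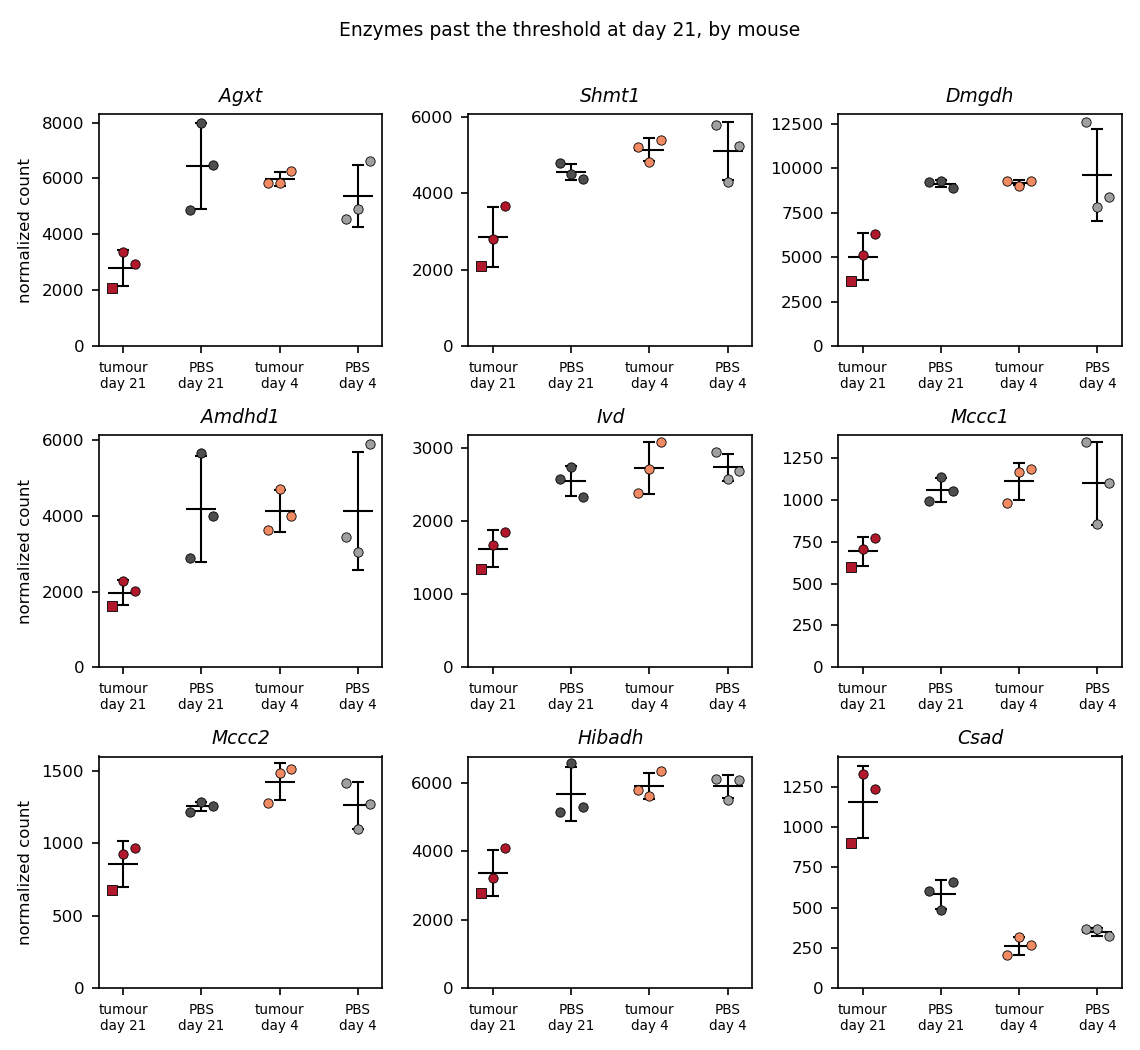
Normalized counts of the 9 enzymes called at day 21, by mouse (points), with the mean and SD of each group of 3 (lines) and tumour day 21 replicate 7 as a square. In the 8 lower enzymes the tumour day 21 mice lie below the PBS day 21 mice, whereas Csad is 901 to 1329 in tumour day 21 mice and 486 to 660 in PBS day 21 mice.

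The enzymes differed widely in level, and those called lower included scarce and abundant transcripts. Per kilobase of annotated exon, Mat1a had a mean normalized count of 17193 in tumour mice and 14872 in PBS mice at day 21, and Tat had 17192 in tumour mice and 14311 in PBS mice. Acmsd, at the low end, had 88.0 per kilobase in tumour mice and 64.3 in PBS mice. Of the called enzymes, Mccc1 had 63.3 per kilobase in tumour mice and 96.8 in PBS mice, and Agxt had 1650 in tumour mice and 3797 in PBS mice. Mice of 1 group also differed among themselves: the median ratio over the enzymes of the highest to the lowest mouse was 1.57 in tumour day 21, 1.28 in PBS day 21, 1.33 in tumour day 4 and 1.52 in PBS day 4.

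At day 4 no enzyme was called in tumour against PBS mice by limma, nor was any of the 12631 tested genes (0%), and edgeR and DESeq2 on recovered reads likewise called 0 enzymes. At an unadjusted p under 0.05, 1 enzyme passed, where 6.02% of all tested genes did. The median log2 fold change was 0.05 beside -0.03 over all tested genes, and 16 of the 51 were negative, where 54.5% of all tested genes were. All 3 tumour livers were above all 3 PBS livers for 0 enzymes, where 4.53% of all tested genes were. The pathway medians lay between -0.01 for proline and 0.21 for tryptophan. The branched-chain enzymes, all negative at day 21, had 8 positive and 5 negative values at day 4, with a median of 0.03.

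The enzyme that passed the unadjusted test at day 4 was Csad, in the direction opposite to day 21. Csad had 209, 320 and 266 normalized counts in tumour mice at day 4, against 366, 366 and 323 in PBS mice at day 4. The tumour mice were all below the PBS mice by a small margin, a separation that occurred in 4.24% of all tested genes. The log2 fold change was -0.43 (SE 0.19, limma adjusted p = 0.815). Next by p were Bhmt, with 17079, 26854 and 16566 normalized counts in tumour mice against 15071, 9522 and 16706 in PBS mice at day 4, and Kynu, with 2657, 4128 and 3113 in tumour mice against 3045, 1710 and 2578 in PBS mice at day 4. Their groups overlapped, with log2 fold changes of 0.55 for Bhmt and 0.45 for Kynu (adjusted p = 0.85 for each). Agxt, lower at day 21, had 5839, 5848 and 6269 normalized counts in tumour mice at day 4, against 4565, 4910 and 6639 in PBS mice at day 4, with a log2 fold change of 0.17.

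Whether the tumour effect differed between the days was tested directly as the day 21 effect minus the day 4 effect. Csad was the 1 enzyme called by limma, with a difference of 1.40 (SE 0.27, interval 0.82 to 1.98, adjusted p = 0.0455), where 0.641% of all tested genes were called higher. This call ended (adjusted p between 0.0596 and 0.118) without tumour day 4 replicate 1 or 3, any of the PBS day 4 mice, tumour day 21 replicate 8b or any of the PBS day 21 mice, and with edgeR on recovered reads (0.114), but stood without tumour day 21 replicate 7. Centring on hepatocyte transcription factors also ended it (limma adjusted p = 0.062). No enzyme was called lower by limma or edgeR, where 0.0475% of all tested genes were by limma, and DESeq2 on recovered reads called 3 (Agxt, Hibadh and Mccc2), where it called 0.562% of all tested genes lower. It called Csad higher, where it called 3.23% of all tested genes higher. At an unadjusted p under 0.05, 20 enzymes passed, where 13.3% of all tested genes did. Agxt had a difference of -1.38 (SE 0.32, adjusted p = 0.0734), Mccc2 one of -0.75 (adjusted p = 0.155) and Hibadh one of -0.77 (adjusted p = 0.178). Over the 51 enzymes the median difference was -0.59 beside 0.04 over all tested genes, and 44 were negative, where 46.8% of all tested genes were, among them 13 of the 13 branched-chain and 4 of the 4 histidine enzymes.

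Between the days without a tumour, PBS day 21 against PBS day 4, limma called none of the enzymes and none of the tested genes (0%), and edgeR and DESeq2 on recovered reads likewise called 0 enzymes. At an unadjusted p under 0.05, 6 enzymes passed, where 3.99% of all tested genes did, and the median log2 fold change was -0.15 beside -0.01. The fold change was negative for 43 enzymes, where 51.7% of all tested genes were negative. All PBS day 21 livers were below all PBS day 4 livers for 4 enzymes, where 4.51% of all tested genes were, and above them for 1, where 5.44% were. The 3 smallest p-values belonged to Sds, Csad and Got1 (adjusted p = 0.938 for each). Sds had 2770, 2283 and 2313 normalized counts in PBS mice at day 21, against 6977, 4427 and 4261 in PBS mice at day 4 (log2 fold change -1.06). Got1 had 4157, 5769 and 3951 in PBS mice at day 21, against 11233, 6927 and 6334 in PBS mice at day 4 (log2 fold change -0.79). For Csad the log2 fold change was 0.72, with every PBS day 21 mouse above every PBS day 4 mouse. The tumour and PBS comparisons share these PBS mice, so a tumour effect on Csad at day 21 is measured against PBS levels that differed in this way between the days.

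Genes that surround the 51 enzymes in the same pathways were counted from a separate list of 67 symbols, of which 64 were in the table and 63 were tested. At day 21, 6 were called lower, where 2.44% of all tested genes were, and 1 was called higher, where 5.42% were. The median log2 fold change was -0.36, 54 of the 63 were negative, where 48.1% of all tested genes were, and 29 had all tumour livers below all PBS livers, where 15.4% were. Qdpr and Pcbd1, which regenerate the cofactor of phenylalanine hydroxylase and so feed the tyrosine pathway, fell by 1.06 and 0.61 on the log2 scale (adjusted p = 0.0204 for Qdpr and 0.0298 for Pcbd1). Qdpr had 2109, 2936 and 3557 normalized counts in tumour mice at day 21, against 4700, 7299 and 5818 in PBS mice at day 21, with no overlap. Abat, which breaks down GABA and beta-alanine, fell by 0.96, and Gcat, which acts on the product of threonine dehydrogenation, fell by 0.86. Suox, the sulfite oxidase that ends cysteine oxidation, fell by 0.69, and Acad8, the isobutyryl-CoA dehydrogenase of the valine route, fell by 0.53. Without tumour day 21 replicate 7 none of these 6 was called, with log2 fold changes of -0.85 for Qdpr (adjusted p = 0.0902), -0.49 for Pcbd1 (0.122), -0.72 for Abat (0.0906), -0.70 for Gcat (0.15), -0.52 for Suox (0.144) and -0.43 for Acad8 (0.195). Their calls also ended without PBS day 21 replicate 11a or 12b, those of Pcbd1, Abat and Acad8 without 10a, and those of Pcbd1, Gcat, Suox and Acad8 without tumour day 21 replicate 8b. Acad8 was called in 2 of the 12 fits that each left out 1 library.

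The 1 higher gene of that list was Asns, which makes asparagine. It had 124, 26.6 and 22.1 normalized counts in tumour mice at day 21, against 4.36, 2.80 and 0.91 in PBS mice at day 21, so replicate 7 held most of its signal. Its log2(value + 1) fold change of 3.67 (SE 0.80, adjusted p = 0.0157) understates the change of a gene this low in PBS mice. It was 2.90 without replicate 7 (adjusted p = 0.0636), and the call also ended without PBS day 21 replicate 12b. Bcat2 (log2 fold change -0.21), Bckdk (0.02) and Ppm1k (0.28), which transaminate branched-chain amino acids and switch their keto acid dehydrogenase off and on, had overlapping groups.

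None of 11 regulators of these enzymes was called at day 21 by limma, and none passed an unadjusted p under 0.05 (median log2 fold change -0.04). All tumour mice were below all PBS mice for 2 of the 11 (18.2%), where 15.4% of all tested genes were. They were all above for 1, where 17.2% of all tested genes were. Hnf4a had 8304, 10971 and 11284 normalized counts in tumour mice at day 21, against 10208, 8752 and 10809 in PBS mice at day 21 (log2 fold change 0.03, SE 0.17). Cebpa had a log2 fold change of -0.50 (adjusted p = 0.377). All its tumour mice were below all PBS mice by a small margin, 7481 in the highest tumour mouse against 7515 in the lowest PBS mouse. The glucagon receptor gene Gcgr had one of -0.28, also with all tumour mice below all PBS mice (adjusted p = 0.388), and the glucocorticoid receptor gene Nr3c1 had one of -0.04. Foxo1 had the highest log2 fold change of the 11 (0.77, adjusted p = 0.338), with 715, 1071 and 1056 normalized counts in tumour mice at day 21, against 640, 478 and 537 in PBS mice at day 21, and all tumour mice above all PBS mice. Of 14 tested amino acid transporters, Slc1a5, a glutamine carrier, was called higher (145, 59.9 and 35.9 normalized counts in tumour mice at day 21, against 8.72, 3.50 and 6.36 in PBS mice at day 21), with a log2 fold change of 3.33 (adjusted p = 0.00502), and stayed called in all 12 fits that left out 1 library. It was low in PBS mice, replicate 7 held most of its tumour signal, and the log2 fold change without replicate 7 was 2.79 (adjusted p = 0.0191). The part of other cells in the Slc1a5 values was not tested. Slc6a12, a betaine and GABA carrier, was called lower (944, 1242 and 1547 in tumour mice at day 21, against 2104, 2090 and 1755 in PBS mice at day 21), with a log2 fold change of -0.70 (adjusted p = 0.0295). That call ended without tumour day 21 replicate 7 (log2 fold change -0.51, adjusted p = 0.119) or 8b, and without any 1 of the 3 PBS day 21 mice.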

How the data were processed

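RNA from hepatocytes of 12 mice (4 groups of 3) was measured by polyA sequencing. Per the submitters' processing notes, cutadapt, STAR 2.4.2a, HTSeq and DESeq2 were used on GRCm38; which annotation and strandedness were used for counting is not given in the sources used here. Values in the table are a normalized signal, deposited by the authors as gene counts scaled per library and not by length. Reads recovered from the fixed step of each library were whole within 0.1 for at least 99.9811% of values.

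Genes with a mean of at least 10 (12631 of 15910) were tested as log2(value + 1) with limma 3.58.1 (trend and robust, R 4.3.3), 1 mean per group over all 12 libraries and Benjamini-Hochberg adjustment. The p-values set each difference between groups against the spread between mice, with each library treated as 1 mouse. In the main fit that spread was pooled over the 4 groups and partly shared across genes. The 19 alternatives were a pseudocount of 5, no filter, TMM, centring on 20 hepatocyte transcription factors, edgeR 4.0.16 and DESeq2 1.42.0 on recovered reads, only the groups compared, and leaving out each library in turn. The fit was also run on simulated counts with 200 changed genes, the same spread for every gene and no library that stood apart. That run therefore cannot show how the calls hold with a library such as tumour day 21 replicate 7.

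Values in every mouse were given for enzymes called at day 21, for the one with the smallest p in pathways with no call, and for the 3 smallest p-values elsewhere; other enzymes were named by fold change, and Gldc, Sds, Sdsl, Cdo1 and Hnf4a were given in full after their values were seen. Transcripts were compared with BLAST for near-identical copies. Besides Ahcy, the values of Bhmt, Afmid, Aldh4a1, Bckdha and Sds are uncertain because they share nearly identical stretches with Gm5096, Gm20708, Gm21969, B3gnt8 and Plbd2. Positions come from GENCODE M21 (GRCm38), matched for 15897 genes. The enzymes and lists were chosen with earlier results of these data known.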

Additional observations from a re-analysis of the deposited data

Results flagged for a closer look

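The tumour effect on Csad, cysteine sulfinate decarboxylase, was called different between the days in the main limma fit, a call that several alternatives did not keep. At day 21 all tumour mice were above all PBS mice (log2 fold change 0.98), and at day 4 all tumour mice were below all PBS mice (log2 fold change -0.43, limma adjusted p = 0.815). The difference between the effects was 1.40 (limma interaction contrast, SE 0.27, adjusted p = 0.0455). The estimate lay between 1.24 and 1.57 when each library was left out in turn, and the adjusted p between 0.0297 and 0.118. With edgeR on recovered reads the estimate was 1.38 (adjusted p = 0.114). In PBS mice Csad had 602, 486 and 660 normalized counts at day 21, against 366, 366 and 323 at day 4.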

How the results depend on the processing

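The count of enzymes called lower at day 21, 8 in the report, was 1 with centring on hepatocyte transcription factors, 3 with only the 2 groups compared, 15 with DESeq2, 6 with edgeR, and 1 to 12 when a library was left out. It was 1 when tumour day 21 replicate 7, or replicate 11a or 12b of PBS day 21, was left out, 4 for replicate 10a, 5 when tumour day 21 replicate 8b, or replicate 1 or 3 of tumour day 4, was left out, and 12 without tumour day 21 replicate 9a. The count called higher was 1 to 2. For the difference between days, 3 enzymes were called lower with DESeq2, and Csad was no longer called higher (a count of 0) with centring or with edgeR; leaving out a library gave 0 to 1. The causes of these shifts were not tested. No enzyme was called at day 4 or between the PBS groups under any alternative run. Among enzymes that did not pass at day 21, the log2 fold change with centring was 0.05 for Kynu and 0.10 for Gpt2. With a library left out it ran from -0.02 to 0.47 for Tat, -0.00 to 0.31 for Tdo2, -0.26 to 0.11 for Kynu, -0.29 to 0.02 for Bckdhb and -0.42 to 0.27 for Gpt2. No paired analysis was possible because the groups share no replicate numbers. With 3 mice per group, differences smaller than the spread between mice were not detectable, and a p above the threshold does not show equal levels.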

Other observations

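Gldc, the decarboxylase of the glycine cleavage system, Hal, histidine ammonia-lyase, and Cbs, cystathionine beta-synthase, belong to 3 different pathways but were high in the same mice. They were singled out after their values were seen, and mice within a group carry no treatment difference. At day 21 the tumour replicates 7, 8b and 9a had 643, 1766 and 1350 normalized counts of Gldc, 2027, 4744 and 3373 of Hal, and 3947, 8627 and 6232 of Cbs. The PBS day 21 replicates 10a, 11a and 12b had 1404, 4583 and 2226 of Gldc, 3180, 6866 and 4061 of Hal, and 5450, 11061 and 8640 of Cbs. The tumour day 4 replicates 1, 2 and 3 had 1974, 4926 and 2256 of Gldc, 5723, 9974 and 5314 of Hal, and 7844, 12504 and 9447 of Cbs. The PBS day 4 replicates 4, 5 and 6 had 2757, 1198 and 4112 of Gldc, 6371, 2869 and 8192 of Hal, and 7348, 4128 and 10458 of Cbs. In each of the 4 groups the same mouse was highest for all 3 genes (8b, 11a, 2 and 6), and apart from tumour day 4 the same mouse was also lowest. The pattern was not particular to these 3 genes, since Amdhd1 and Amt were highest in the same 4 mice and lowest in replicates 7, 10a and 5. Replicate 7 was the lowest tumour day 21 library for all 51 enzymes, so a shared lowest mouse there carries no information. Replicate 11a was the highest PBS day 21 library for 28 of the 51.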
